A study of Capra hircus with 6 samples.

Results

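The genes described here are 10 genes of the neuronal microtubule cytoskeleton: MAP1A, MAP1B, MAP2, MAP4, MAP6, MAPT, DCX, DCLK1, STMN2 and TUBB3. They were chosen by gene symbol, which matched exactly 1 row each among the 28244 genes of the count table, and all 10 had enough counts to be tested. They were measured by RNA sequencing in pineal glands of untreated female goats (Capra hircus) at puberty and before puberty, with 3 libraries at each stage. Per the series description, goats at puberty showed a swollen vulva and had some mature follicles in the ovary by histology. The labels give no age or breed, and they do not tie libraries to individual animals. The p-values thus rest on differences among libraries of a stage, some of which may be technical.

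Microtubules are polymers of alpha and beta tubulin that stiffen neuronal processes and carry transport along them. Structural microtubule-associated proteins bind along the polymer and stabilise it: MAP2 mainly in dendrites, tau (MAPT) mainly in axons, MAP1B in growing axons, MAP1A in mature neurons, and MAP6 at cold-stable microtubules. MAP4 is the relative of MAP2 and tau that is found widely outside neurons. Doublecortin (DCX) binds microtubules in migrating and young neurons, and DCLK1 joins doublecortin domains to a kinase domain. STMN2 is not a polymer-binding protein but a stathmin, which holds tubulin dimers and favours disassembly, and TUBB3 is the beta tubulin typical of neurons. The pinealocyte, the melatonin-secreting cell of the gland, extends processes and shares part of its gene expression with neurons.

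Library totals ran from 18963195 to 20971065 counts at puberty and from 18864451 to 20247370 before puberty. The melatonin pathway enzymes TPH1 and ASMT, which mark pinealocytes, were at 2175 to 3201 CPM (counts scaled to library size) and 724 to 1307 CPM at puberty, against 2089 to 2628 CPM and 899.9 to 1210.5 CPM before puberty. Of 10 tested pinealocyte markers, which include both, 0 were called. Their median log2 fold change was 0.12, and 6 of them were above 0. At an unadjusted p under 0.05 with edgeR, CHGA and SAG were higher and 0 were lower, beside 14.5% of all tested genes in each direction. DESeq2 called 1 of the 10 as higher. Their summed level was 9360 to 10414 CPM at puberty and 8668 to 9540 CPM before puberty, with overlapping ranges. Summed levels of 14 neuron markers other than the 10 genes were 5866 to 6132 CPM at puberty and 5023 to 5529 CPM before puberty, and UCHL1 was the only one of them called (1.66-fold higher, adjusted p = 0.031). SYP, at 3426 CPM at puberty and 2745 CPM before puberty (adjusted p = 0.092), made up most of the difference between these sums. The median log2 fold change of the 14 was 0.04, and 8 of them were above 0. RBFOX3, the defining marker of mature neurons, was at 2.36 to 7.74 CPM at puberty and 1.61 to 2.55 CPM before puberty. The choroid plexus gene TTR reached 10089.5 CPM in puberty replicate 2, against 464 and 206 CPM in the other puberty libraries and 88.5, 75.3 and 317 CPM before puberty. The part of these cell types in the results was not tested, and in whole glands fewer cells of a type cannot be told apart from less RNA per cell.

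The comparison of puberty with prepuberty asked how transcripts of this cytoskeleton differ across the transition. Of the 10 genes, 3 fell at puberty and 0 rose: DCLK1 fell 2.06-fold, MAP2 1.45-fold and MAP1B 1.37-fold. A call here is a Benjamini-Hochberg adjusted p under 0.05 from edgeR's quasi-likelihood test over 16588 genes, and the same rule called 11.5% of all tested genes, 5.64% of them as lower and 5.85% as higher. At an unadjusted p under 0.05, 4 of the 10 genes were lower and 2 higher, beside 14.5% of all tested genes in each direction. DESeq2 called 3 lower and 1 higher, beside 8.51% and 8.94% of its tested genes. Limma-voom called 3 lower and 0 higher, beside 5.20% and 5.28%. The median log2 fold change of the 10 genes was -0.11, against 0.01 over all tested genes. With offsets for gene length that median was -0.0031, against 0.01 over all tested genes, so the distance between the medians was far smaller in that fit. Together the 10 genes held 0.447% to 0.482% of all counts at puberty and 0.541% to 0.547% before puberty, and these ranges did not overlap.

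**Figure D1:**
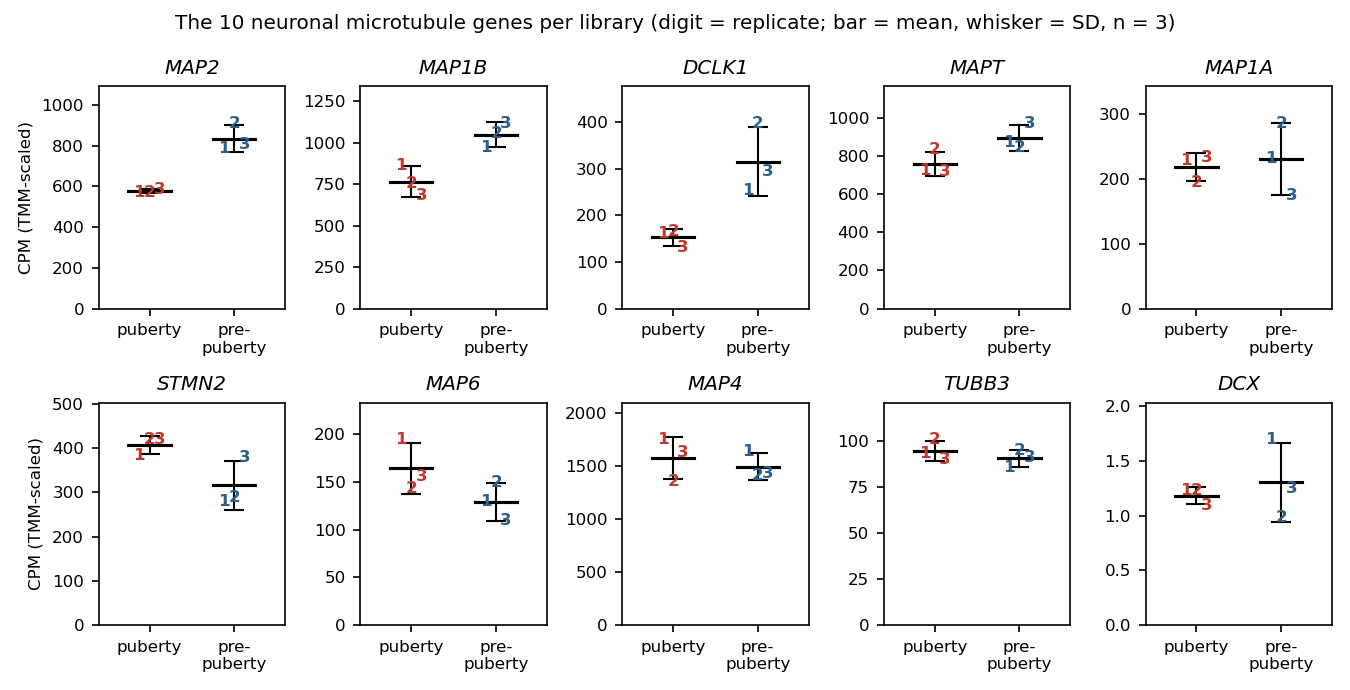
Level of each of the 10 genes in CPM (vertical axes from 0, a scale of its own per gene) in the puberty and prepuberty libraries; digits are the replicates, the bar is the mean and the whisker the SD (n = 3 libraries per group). MAP2, MAP1B, DCLK1 and MAPT lie lower and STMN2 lies higher in all 3 puberty libraries, while the groups of MAP1A, MAP6, MAP4, TUBB3 and DCX overlap.

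MAP2 lies on chromosome 2 (38308337 to 38453122, minus strand, in the coordinates of the authors' table, which names no genome build). It was at 570, 571 and 587 CPM in the puberty libraries, against 787, 910 and 804 CPM in the prepuberty libraries. The puberty libraries were nearly identical and all lay below the lowest prepuberty library. The log2 fold change was -0.53 (SE 0.09, 95% interval -0.74 to -0.32, adjusted p = 0.015 with edgeR).

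DCLK1 lies on chromosome 12 (61022081 to 61360653, minus strand). Its level was 161, 166 and 132 CPM at puberty, against 254, 398 and 295 CPM before puberty. Every puberty library lay well below every prepuberty library, and prepuberty replicate 2 was the highest of all. The log2 fold change was -1.05 (SE 0.17, 95% interval -1.44 to -0.65, adjusted p = 0.014 with edgeR), the largest of the 10. Only 1.5% of all tested genes had a fold change as low or lower.

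MAP1B lies on chromosome 20 (9411493 to 9505074, minus strand). It was at 863, 752 and 679 CPM at puberty, against 970, 1057 and 1119 CPM before puberty. The groups did not overlap, and puberty replicate 1 came nearest to the prepuberty libraries. The log2 fold change was -0.46 (SE 0.11, 95% interval -0.71 to -0.20, adjusted p = 0.037 with edgeR). An unnamed protein-coding model of 180 nt on the same strand overlaps MAP1B and held 6.52% as many counts, with a log2 fold change of -0.43 (adjusted p = 0.066).

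The other structural proteins did not pass. MAPT (chromosome 19, 45520398 to 45642831) was at 725, 832 and 721 CPM at puberty, against 872, 844 and 973 CPM before puberty. Its groups did not overlap, with puberty replicate 2 just under prepuberty replicate 2. The log2 fold change was -0.24 (95% interval -0.47 to -0.01, adjusted p = 0.16). MAP1A (chromosome 21, 54767128 to 54787108) was at 228, 195 and 234 CPM at puberty, against 231, 287 and 175 CPM before puberty. Here the prepuberty libraries spread over a wider range that took in all puberty libraries, and the interval of the log2 fold change ran from -0.47 to 0.31 (adjusted p = 0.80). MAP4 (chromosome 22, 51861886 to 51953792) averaged 1576 ± 200 CPM at puberty and 1492 ± 126 CPM before puberty (SD, n = 3 each), with an interval from -0.19 to 0.35 (adjusted p = 0.70).

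MAP6 (chromosome 15, 28176103 to 28256646) was at 195, 143 and 156 CPM at puberty, against 130, 149 and 109 CPM before puberty. Puberty replicate 1 was the highest and prepuberty replicate 3 the lowest, and the groups overlapped. The log2 fold change was 0.34 (95% interval 0.01 to 0.67, adjusted p = 0.16).

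STMN2 (chromosome 14, 39193173 to 39253817) was at 383, 418 and 419 CPM at puberty, against 279, 288 and 379 CPM before puberty. The groups did not overlap, but puberty replicate 1 and prepuberty replicate 3 were almost equal. The log2 fold change was 0.37 (SE 0.13, 95% interval 0.08 to 0.65), with an adjusted p of 0.091 with edgeR and 0.040 with DESeq2. Without prepuberty replicate 3 the log2 fold change was 0.53 and edgeR's adjusted p was 0.044.

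TUBB3 (chromosome 18, 16108489 to 16117099) had the narrowest interval of the 10 genes. It averaged 94.5 ± 5.6 CPM at puberty and 90.4 ± 4.7 CPM before puberty (SD, n = 3 each), and the interval of its fold change ran from 0.914 to 1.195 (adjusted p = 0.66). TUBB3 is close in sequence to other beta tubulins, and the sources used here do not state how reads matching several genes were counted. DCX is listed on the unplaced scaffold LWLT01001116.1 with a length of 900 nt, and had 25, 23 and 22 counts at puberty, against 33, 20 and 24 counts before puberty. At this depth the interval of its log2 fold change ran from -0.94 to 0.65 (adjusted p = 0.82), so a change of the size seen for MAP2 was not detectable.

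In all, 5 of the 10 genes had groups that did not overlap (DCLK1, MAP2, MAP1B, MAPT and STMN2), beside 34.8% of all tested genes. Where an adjusted p missed the threshold, the intervals above give the differences that remain possible.

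Levels of different genes were compared on the FPKM scale, the authors' fragment counts scaled by listed gene length and by a constant per library. MAP4 was by far the most abundant, at 472 ± 59 FPKM at puberty and 446 ± 38 FPKM before puberty (SD, n = 3 each), above 98.8% of tested genes. MAPT, MAP1B and MAP2 formed a group at 116 ± 9.9, 96.9 ± 12 and 90.5 ± 1.4 FPKM at puberty and 137 ± 10, 133 ± 9.5 and 131 ± 10 FPKM before puberty. Within that group the ranges of MAP1B and MAP2 overlapped at both stages, and those of MAPT and MAP1B overlapped before puberty. STMN2 was at 90.8 ± 4.7 FPKM at puberty, where its range overlapped that of MAP2, and at 70.3 ± 12 FPKM before puberty, where it lay below all MAP2 values. TUBB3 and MAP6 followed at 44.5 ± 2.7 and 44.7 ± 7.3 FPKM at puberty and 42.5 ± 2.2 and 35.1 ± 5.4 FPKM before puberty, with overlapping ranges at both stages. DCLK1 and MAP1A were at 14.3 ± 1.8 and 20.97 ± 2.0 FPKM at puberty and 29.5 ± 6.9 and 22.1 ± 5.3 FPKM before puberty. Their ranges overlapped before puberty (23.7 to 37.2 FPKM for DCLK1 and 16.8 to 27.4 FPKM for MAP1A) but not at puberty, where DCLK1 lay below MAP1A (12.3 to 15.6 FPKM against 18.7 to 22.4 FPKM). DCX was last at 1.31 ± 0.09 FPKM at puberty and 1.45 ± 0.40 FPKM before puberty. Summed over the 10 genes, the FPKM level was 936 to 1054 at puberty and 1042 to 1055 before puberty, with overlapping ranges. MAP4 was the largest part of that sum, at 407 to 524 FPKM at puberty and 422 to 490 FPKM before puberty. The overlap of the sums thus does not describe the other genes.

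Listed gene length moved with the direction of change. Across all tested genes, 21.9% of the 837 genes over 7000 nt were called lower and 0.956% higher, while of the 1427 genes of up to 500 nt 1.05% were called lower and 18.4% higher. The 3 genes that fell are long: DCLK1 is listed at 10644 nt, MAP1B at 7874 nt and MAP2 at 6348 nt. MAP1A, at 10415 nt, is as long as DCLK1 and was not called, and MAPT, at 6513 nt, is slightly longer than MAP2. STMN2 and MAP6, both higher on average, are listed at 4471 and 3668 nt. To remove the trend, offsets for gene length were added to each library in the same test. With them, 5.61% of all genes were called (2.74% lower, 2.86% higher), and of the 10 genes MAP2 alone was called, with a log2 fold change of -0.40 (SE 0.09, adjusted p = 0.043). DCLK1 had -0.77 (SE 0.19, adjusted p = 0.058) and MAP1B -0.27 (SE 0.12, adjusted p = 0.19). With offsets from 20 bins of length in place of a smooth trend, MAP2 and DCLK1 were called (adjusted p = 0.035 and 0.046) and MAP1B was not (adjusted p = 0.29). MAP1A changed sign to 0.19, MAPT moved to -0.10, and STMN2 and MAP6 moved up to 0.45 (adjusted p = 0.063) and 0.42 (adjusted p = 0.12). What sets the length trend was not tested.

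**Figure D2:**
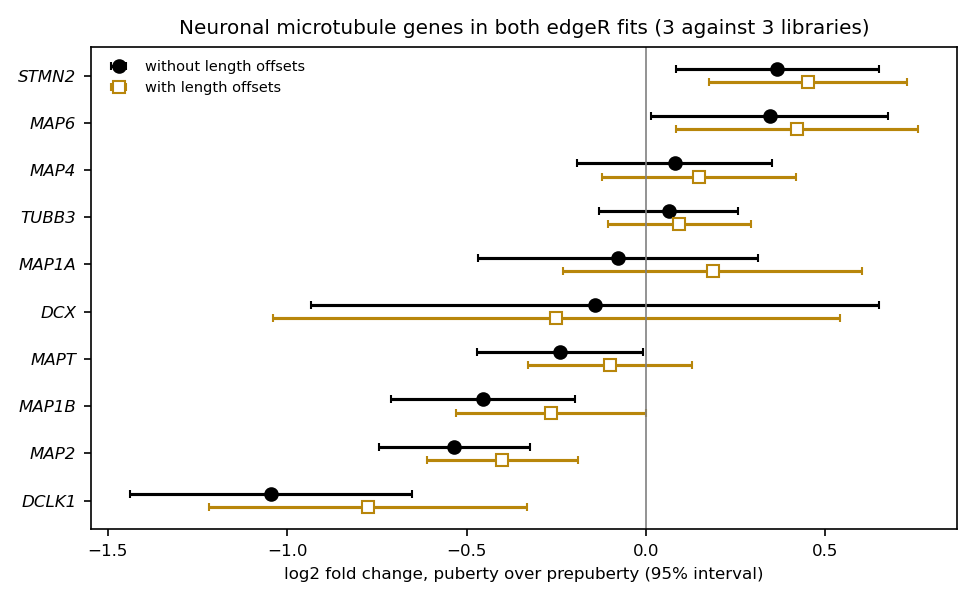
Log2 fold change, puberty over prepuberty (horizontal axis), of the 10 genes in the edgeR test without length offsets (filled circles) and with them (open squares); bars are 95% intervals (3 against 3 libraries). DCLK1, MAP2 and MAP1B stay below 0 with their whole interval in both, MAP1B only up to -6e-04 with the offsets. STMN2 and MAP6 stay above 0 in both. The intervals are not adjusted for the number of genes tested. MAP1A has -0.08 without the offsets and 0.19 with them.

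**Figure D3:**
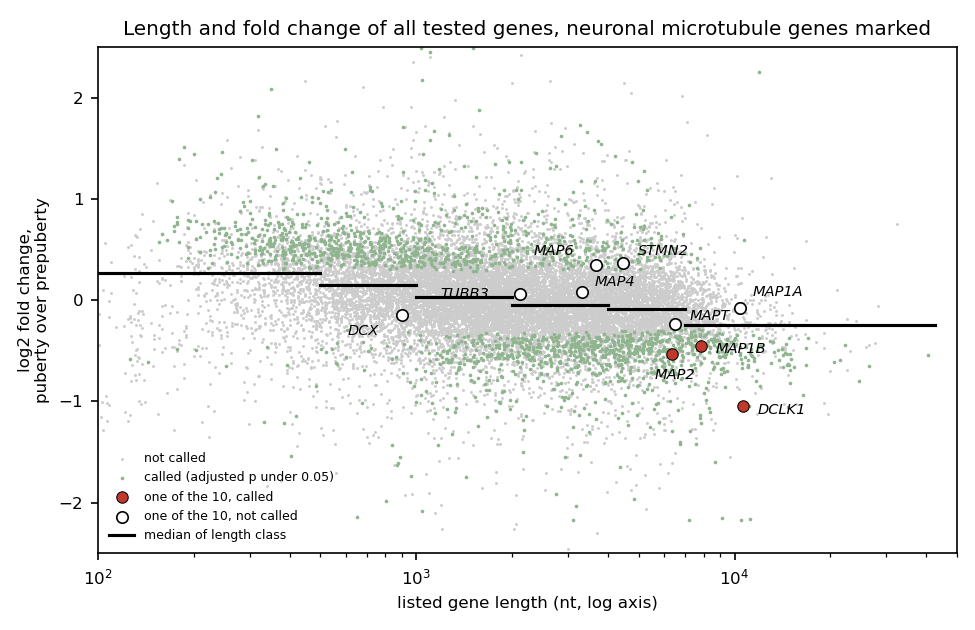
Listed gene length (horizontal, log axis, in nt) and log2 fold change, puberty over prepuberty (vertical), of the tested genes; black lines are medians of length classes, and 101 of the 16588 genes lie beyond the axes. The 3 called genes, DCLK1, MAP1B and MAP2, lie below the median of their length class, and the medians fall to -0.24 for genes over 7000 nt, against 0.27 for genes of up to 500 nt.

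The calls also rested on single libraries. Without prepuberty replicate 1 edgeR called 0 of all genes, with 3924 at an unadjusted p under 0.05. In that fit the log2 fold change was -0.56 for MAP2 and -1.17 for DCLK1 (adjusted p = 0.061 for both, the lowest of any gene), and MAP1B had -0.50 (adjusted p = 0.078). On the same 5 libraries DESeq2 called all 3 genes and limma-voom called 0 genes. Without any other single library MAP2 and DCLK1 were called. MAP1B was called without puberty replicate 1 and lost its call without puberty replicate 2 or 3 or prepuberty replicate 2 or 3 (adjusted p = 0.097, 0.096, 0.079 and 0.11). All 3 genes kept their negative sign in each of these fits.

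**Figure D4:**
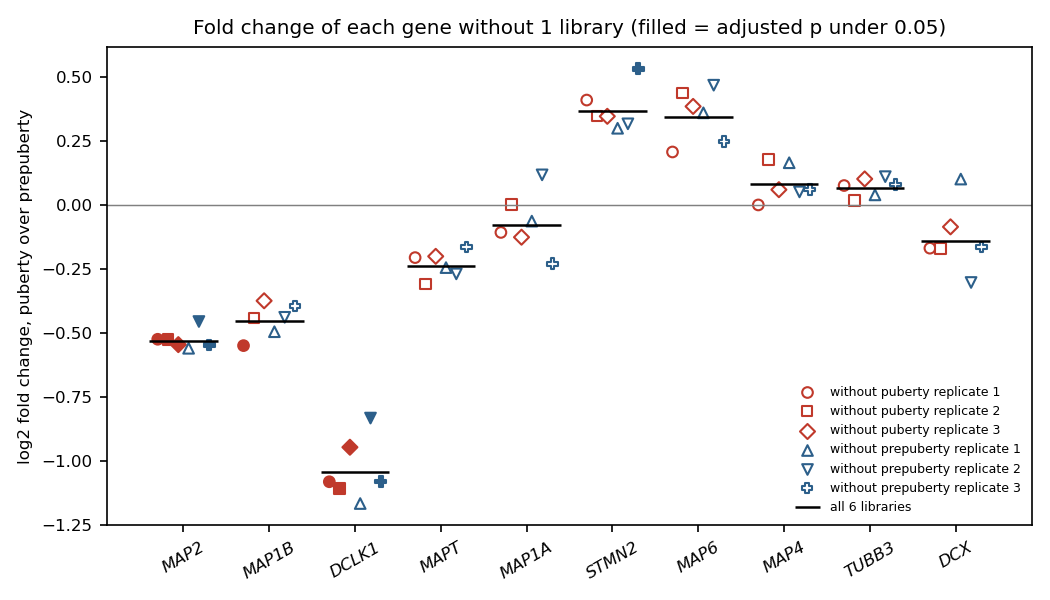
Log2 fold change, puberty over prepuberty (vertical axis), of each of the 10 genes when 1 library is left out (1 symbol per library, filled where the adjusted p was under 0.05) and with all 6 libraries (black line). DCLK1 ranges from -1.17 to -0.83 and MAP2 from -0.56 to -0.46, while MAP1A, MAP4 and DCX lie on both sides of 0.

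The patterns over the 6 libraries were compared as the root mean square difference of log2 CPM centred on each gene, a description that was not tested. Among the pairs of the 10 genes that include a called gene, MAP1B and MAP2 were the most alike (0.14). MAP1B and MAPT differed by 0.17, MAP2 and MAPT by 0.20, and MAP2 and DCLK1 by 0.30. Among those pairs DCLK1 and STMN2 were the least alike (0.76). Among 11692 other genes with a symbol and a mean of at least 1 CPM, MIER3 (0.03), BCORL1 (0.04) and FGD6 (0.05) were nearest to MAP2. SRGAP3 (0.04), SFXN3 (0.04) and MAPKBP1 (0.05) were nearest to MAP1B. NFIB, a transcription factor of neural development, was nearest to DCLK1 (0.16), followed by SEMA5B (0.17), a semaphorin, and SCN2A (0.18), a neuronal sodium channel. NFIB was at 7.22 CPM at puberty and 13.4 CPM before puberty, and SCN2A at 5.53 CPM at puberty and 11.4 CPM before puberty. Their lower levels at puberty follow from their choice by likeness to DCLK1.

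Other genes of the microtubule cytoskeleton were taken from 5 lists. These hold 146 genes, 121 of them found by symbol and 116 tested. Of the 116, 7 rose and 15 fell, beside 5.85% and 5.64% of all tested genes, and their median log2 fold change was -0.12. Of the end-binding proteins 5 of 20 fell and 0 rose, with a median of -0.28 and a median length of 5192.5 nt. None of the 20 was higher at an unadjusted p under 0.05 either, and neither DESeq2 nor limma-voom called any as higher. APC, which binds microtubule plus ends and acts in Wnt signalling, fell 1.66-fold to 160 ± 11 CPM at puberty, against 265 ± 23 CPM before puberty (SD, n = 3 each, adjusted p = 0.014). MACF1, a linker of actin and microtubules, fell 1.36-fold, CLASP1, which promotes regrowth of plus ends, 1.35-fold, and PAFAH1B1, the dynein regulator known as LIS1, 1.28-fold. CAMSAP2, which binds minus ends and is named only to complete the 5, fell 1.27-fold (adjusted p = 0.046). With length offsets 2 of the 20 were lower, APC and PAFAH1B1, as were 5 of the 32 other microtubule-associated proteins, and MACF1 had a log2 fold change of 0.04. In that fit the median log2 fold change was -0.12 for the 20 and -0.04 for the 116, against 0.01 over all tested genes. The median length of all tested genes was 1903 nt.

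Among 32 other microtubule-associated proteins 6 fell and 2 rose. NAV3, a neuron navigator of growing microtubule ends, fell 2.09-fold to 4.56 ± 0.48 CPM at puberty, against 9.54 ± 0.32 CPM before puberty (SD, n = 3 each, adjusted p = 0.014). EML5 fell 1.602-fold, DPYSL5, a collapsin response mediator protein of developing neurons, 1.47-fold, and MAP9 1.45-fold. MAP9 was at 20.3, 19.9 and 20.3 CPM at puberty, against 30.2, 28.9 and 28.9 CPM before puberty, so the libraries of each stage were almost equal. The genes that rose are both stathmins, relatives of STMN2. The stathmin STMN1 was not found by symbol and so was not tested. STMN3 was at 252, 241 and 226 CPM at puberty, against 163, 183 and 130 CPM before puberty, and rose 1.51-fold (adjusted p = 0.023). STMN4 was at 132, 157 and 137 CPM at puberty, against 110, 85.0 and 88.9 CPM before puberty, and rose 1.501-fold (adjusted p = 0.020). With length offsets STMN4 was still called (adjusted p = 0.027) and STMN3 was not (adjusted p = 0.090). MAP7D1, which is not a stathmin, was called higher with the offsets (log2 fold change 0.37, adjusted p = 0.040). Without them it had 0.25 (adjusted p = 0.083).

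Of 12 tubulins 2 rose and 0 fell, and none of the 12 was lower at an unadjusted p under 0.05 or by DESeq2 or limma-voom. TUBA1A, TUBA1D, TUBA3 and TUBG1 were not found by symbol and so were not tested. TUBB4A, a beta tubulin of neurons and oligodendrocytes, rose 1.31-fold to 174 ± 14 CPM at puberty, against 134 ± 10 CPM before puberty. TUBB2B, a beta tubulin of the developing and mature brain, rose 1.44-fold to 55.9 ± 11 CPM at puberty, against 38.7 ± 1.7 CPM before puberty (SD, n = 3 each, adjusted p = 0.037 for TUBB4A and 0.042 for TUBB2B). Both lost the call with length offsets (adjusted p = 0.052 and 0.053), and their sequences are close to those of other beta tubulins.

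Of 28 genes for tubulin folding, modification and severing 2 rose and 1 fell. TBCB, a tubulin folding cofactor, rose 1.40-fold, and TTLL12, of the tubulin tyrosine ligase-like family, 1.35-fold. ATAT1, which acetylates alpha tubulin, fell 1.41-fold (adjusted p = 0.045). With length offsets TTLL12 was still called (adjusted p = 0.039), and TBCB (0.072) and ATAT1 (0.051) were not. Of 24 kinases and phosphatases that act on microtubule-associated proteins 1 rose and 3 fell. CDK5, which phosphorylates tau and doublecortin in neurons, was at 54.0, 56.8 and 50.0 CPM at puberty, against 38.3, 40.8 and 39.0 CPM before puberty, and rose 1.36-fold (adjusted p = 0.021). TAOK1, a kinase that activates the MARK kinases, fell 1.95-fold to 17.2 ± 0.60 CPM at puberty, against 33.5 ± 4.6 CPM before puberty (adjusted p = 0.014). TTBK2, a tau tubulin kinase, fell 1.56-fold and DYRK1A, which phosphorylates tau, 1.27-fold (adjusted p = 0.0496). With length offsets DYRK1A lost its call (adjusted p = 0.083), and CDK5, TAOK1 and TTBK2 were still called.

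**Figure D5:**
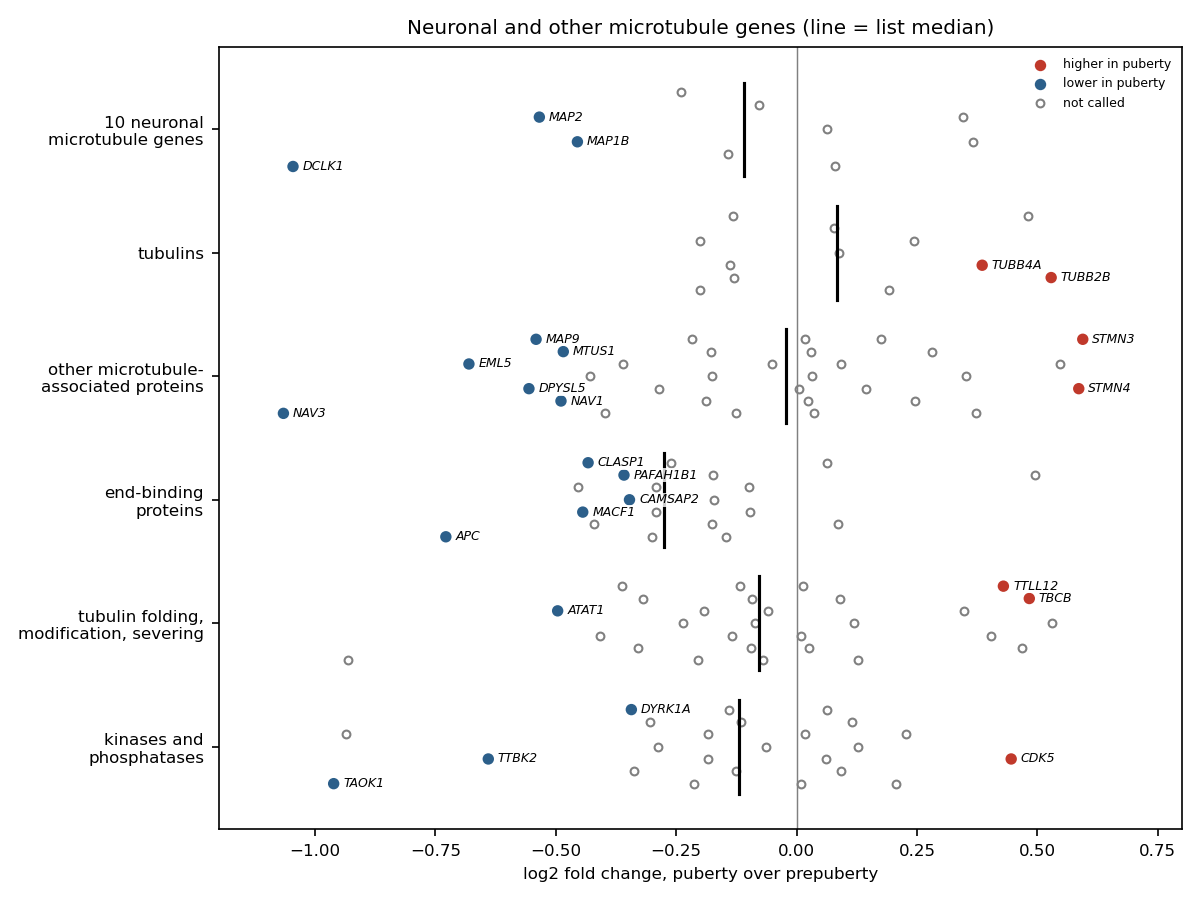
Log2 fold change, puberty over prepuberty (horizontal axis), of the 10 genes and of 5 lists of other microtubule genes (rows; 1 circle per gene, vertical position within a row only separates them), with the median as a black line. Called genes are filled and named: 3 of the 10 genes lie lower, 5 of 20 end-binding proteins lie lower, and the 2 called tubulins and both called stathmins lie higher.

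Marker lists of other cells were read in the same fit, in which 5.64% of all tested genes were called lower and 5.85% higher. Of 6 tested markers of immature neurons SOX11 alone was called. It fell to 1.85 CPM at puberty, against 3.87 CPM before puberty (adjusted p = 0.049, and 0.062 with length offsets). Limma-voom called 0 of the 6. Their median log2 fold change was -0.43, and 1 of the 6 was above 0. At an unadjusted p under 0.05 with edgeR, 3 of the 6 were lower and 0 higher, beside 14.5% of all tested genes in each direction. The summed level of that list was 97.3 to 127 CPM at puberty and 123 to 150 CPM before puberty, with overlapping ranges. SOX4, at 88.4 CPM at puberty and 109 CPM before puberty, made up most of it, and DLX1 had 0 counts in all 6 libraries. Of 8 tested markers of dividing cells 5 fell and 0 rose (0 also at an unadjusted p under 0.05, with DESeq2 and with limma-voom), and their summed level was 13.5 to 18.2 CPM at puberty and 39.4 to 53.7 CPM before puberty. Of 9 astrocyte markers 2 rose, and the summed level of the 9 was 6338 to 6541 CPM at puberty and 4321 to 5907 CPM before puberty. GFAP, at 3767 CPM at puberty and 2646 CPM before puberty, was the largest part of these sums and was not called (adjusted p = 0.078). Of the 9 markers, 6 had a log2 fold change above 0, while AQP4, SLC1A2 and GJA1 had -0.28, -0.29 and -0.16. Of 11 mitochondrial transcripts 3 rose, and their summed level was 8247 to 11161 CPM at puberty and 6225 to 7902 CPM before puberty. Of 9 microglia markers TYROBP alone rose (adjusted p = 0.041, and 0.096 with length offsets). All 9 had a log2 fold change above 0 (median 0.665). At an unadjusted p under 0.05, 6 of the 9 were higher and 0 lower. DESeq2 called 5 higher and limma-voom 0. Of 5 tested Schwann cell markers SCN7A alone fell (adjusted p = 0.014). Of 8 oligodendrocyte, 6 endothelium, 5 fibroblast and 3 choroid plexus markers edgeR called 0, and DESeq2 called 2 oligodendrocyte markers lower. The part of these lists in the fall of DCLK1, MAP2 and MAP1B was not tested. Of 5 tested markers of habenula neurons, which lie beside the pineal gland, 0 were called. SLC17A6, at 594 CPM at puberty and 649 CPM before puberty, made up most of their summed level (549.96 to 693 CPM at puberty and 697 to 709 CPM before puberty). GPR151 was at 0.817 CPM at puberty and 0.994 CPM before puberty, and the defining marker POU4F1 had 0 to 6 counts at puberty and 4 to 13 counts before puberty. With edgeR, 1 of those 5 markers was lower at an unadjusted p under 0.05, and DESeq2 and limma-voom called 0.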

How the data were processed

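Per the labels' protocols, TRIzol was used for RNA extraction and the NEBNext Ultra RNA kit, which does not mark strand, for the libraries. HISAT2 2.0.5 and featureCounts 1.5.0-p3 are named in the submitters' processing notes, beside fastp, DESeq2 1.20.0 and CASAVA 1.8, without roles. The notes also name the human builds GRCh38 and hg38, although the gene identifiers are goat Ensembl identifiers. The authors deposited raw counts per gene and FPKM values for the same 6 libraries, with the gene length as another column, and dividing each count by the listed length and a constant per library returned the FPKM values.

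Counts were tested with edgeR 4.0.16 in R 4.3.3 (quasi-likelihood test, TMM scaling, filterByExpr with a minimum count of 10), which kept 16588 of 28244 genes. P-values were adjusted by Benjamini-Hochberg over all of them, with calls under 0.05. CPM values use the tested genes and TMM scaling, and log2 CPM for length curves and patterns uses a prior count of 2. The SE is the absolute log2 fold change divided by the square root of F. Length offsets came from a lowess curve (span 0.3) of each library's log ratio on log length, or from 20 bins. Alternatives used DESeq2 1.42.0, limma 3.58.1, other scaling, filters and pseudocounts, a replicate block, and each library left out. Scripts were tested on simulated data. The precision is limited by 3 libraries per group and by totals of 18864451 to 20971065 counts.

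The genes, lists and tests were chosen with earlier results of these data known. Named are all 10 genes, up to 4 called genes per list and direction by smallest p, and the 3 nearest patterns of each called gene. CAMSAP2, MAP7D1 and some genes of the marker lists were named after their values were seen.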

Additional observations from a re-analysis of the deposited data

How the results depend on the processing

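MAP2, MAP1B, DCLK1, MAPT, MAP6, STMN2 and TUBB3 kept their direction under every alternative run. MAP1A had 0.19 with length lowess offsets, 0.16 with length bins and 0.22 with lowess offsets and the replicate block, and -0.23 to 0.12 with 1 library left out. MAP4 ranged from -7e-04 to 0.18 and DCX from -0.30 to 0.10 with 1 library left out, and without prepuberty replicate 1 DCX had 0.088 with DESeq2 and 0.11 with limma-voom, both chosen after seeing the data.

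Of the 10 genes, 3 were lower and 0 higher. Lower were 1 with lowess offsets, 0 with those and the block, and 0 to 3 with 1 library left out. Higher were 1 with DESeq2, 1 at an adjusted p under 0.1 and 0 to 1 with 1 library left out. Of the pathway genes (7 higher, 15 lower), lowess offsets gave 4 and 9, length bins 4 higher, an adjusted p under 0.1 23 lower, and 1 library left out 0 to 4 and 0 to 11. Over all genes (971 higher, 935 lower), lowess offsets gave 475 and 455, length bins 455 and 467, an adjusted p under 0.1 1628 and 1617, and 1 library left out 0 to 728 and 0 to 540. Limma-voom without prepuberty replicate 1 gave 0 in each of these counts.

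In deviations of each gene from its stage mean, same-numbered libraries correlated at 0.05, -0.10 and -0.10. Only replicate 1 at puberty correlated best with its own number. These values gave no sign that the numbers pair the libraries, but with 3 libraries per stage they cannot exclude it. With the replicate block, 366 genes were higher and 354 lower, 1 and 8 of the pathway genes, and MAP1B was not called (adjusted p = 0.090). With lowess offsets and the block the counts were 1 and 1 over all genes and 0 and 0 of the pathway genes. The causes of these shifts were not tested. Low counts limit DCX.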

Other observations

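Ratios between the 10 genes within a library do not depend on its scaling. They were chosen after their values were seen and are given on the FPKM scale with no test. STMN2 over MAP2 was 0.954, 1.04 and 1.01 in the puberty libraries, against 0.504, 0.450 and 0.670 in the prepuberty libraries. The tubulin-binding stathmin was thus about level with the dendritic MAP2 at puberty and below it in every prepuberty library. MAP6 over MAP2 averaged 0.494 ± 0.085 at puberty and 0.268 ± 0.028 before puberty (SD, n = 3 each). DCLK1 over TUBB3 was 0.343, 0.329 and 0.291 at puberty, against 0.590, 0.834 and 0.644 before puberty. MAPT over MAP2 averaged 1.29 ± 0.12 at puberty and 1.05 ± 0.14 before puberty (SD, n = 3 each), and MAP4 over MAP2 averaged 5.22 ± 0.66 and 3.44 ± 0.51 at the same stages. MAP1A over MAP1B overlapped between the stages, at 0.196 to 0.260 at puberty and 0.119 to 0.205 before puberty. Length offsets moved the log2 difference of STMN2 over MAP2 to 0.85, against 0.90 without them, and that of DCLK1 over TUBB3 to -0.87, against -1.11 without them.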
